A study of Trichoderma reesei QM6a with 24 samples.

Results

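A group of 15 gene models of the filamentous fungus *Trichoderma reesei* reached their highest wild type level when mycelium grew in light with added methionine. They are 15 of the 10879 models in the count table. Members were selected on measured values. A model was chosen by its group means, when its mean wild type level in light with methionine, plus 0.5, was at least 10 CPM (read pairs per 1000000 counted in the library) and at least 4 times the corresponding value in each of darkness, darkness with methionine and light. The models TrG0018C and TrG0019C were left out by the rule. The 12 wild type libraries therefore chose the members, and their wild type values are given as a description without a test. The 12 libraries of the deletion mutant were not used in the choice and carry the tests.

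The wild type was strain QM6a and the mutant was QM6aΔ72004, a deletion strain in the same background. Each genotype was grown on cellulose in minimal medium at 28 °C in constant darkness or constant light, without methionine or with 5 mM L-methionine, which gives 8 groups of 3 libraries of total RNA from mycelium. All groups had cellulose as the carbon source, the sample labels give a time of 72 h where the growth protocol gives 96 h, and the labels do not say how many mutant clones were used or whether libraries came from separate cultures. P-values therefore measure the spread between these libraries, which may be technical. The model linked by position to the deleted locus, TrE0303W, was counted 86 to 579 times in every QM6a library and 0 times in all 12 of the mutant. Library totals ran from 13210988 to 21224989 counts, so that 3 counts in one library correspond to 0.141 to 0.227 CPM. In the labels the light samples have one run of library numbers and the dark samples another, so lighting and library run cannot be told apart.

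Light is sensed in *T. reesei* by the blue light receptors BLR1 and BLR2, which act as a complex of transcription factors, together with the photoadaptation protein ENV1, and it is known to change the expression of cellulase genes in this fungus. Methionine is a sulfur-containing amino acid that can serve as a sulfur source and is the precursor of S-adenosylmethionine, the methyl donor of the cell. The deleted gene is described in the title of the series as that of a G-protein coupled receptor, a class of membrane proteins that pass signals from outside the cell to G-proteins. The reference table lists no gene products for any model, so no function can be given for the members. Of the 15 members, 5 were linked to a reference locus tag and none of these has a gene symbol. Over all models, 40 of the 4016 linked ones have a symbol. TrB0421C was linked to TRIREDRAFT_107853, TrC1414C to TRIREDRAFT_59152, TrD0147C to TRIREDRAFT_5084, TrE1269C to TRIREDRAFT_103015 and TrF0117C to TRIREDRAFT_109282.

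The data showed 2 kinds of members. In 13 of them the wild type level was lowest or nearly lowest in darkness, was in most cases higher with light or methionine alone, and was much higher when both were given. Summed over these 13, wild type darkness gave 39.9 ± 8.15 CPM and methionine in darkness 600.2 ± 60 (SD, n = 3 libraries). Light gave 355.1 ± 182 CPM, and both agents together 4142 ± 357. The mutant sums were 37.3 ± 2.58, 491.3 ± 32.7, 257.2 ± 14.5 and 3712 ± 1083 CPM in the same order. Much of these sums came from TrB0212C and TrE0533C, with wild type means of 1845 and 1416 CPM in light with methionine. The other members, TrC1552C and TrE0434C, were already abundant in darkness, were lower with light or methionine alone, and stood above the level of darkness in some libraries of light with methionine. The description "high only in light with methionine" does not hold for these 2 models, whose wild type libraries in darkness read 2707 to 3062 and 246 to 334 CPM. Nor does it hold in absolute level for TrE0533C, at 262 to 427 CPM in wild type darkness with methionine and 129 to 333 in light. TrB0212C read 148 to 193 CPM in wild type darkness with methionine. For such models the description refers only to the ratio between groups.

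**Figure D1:**
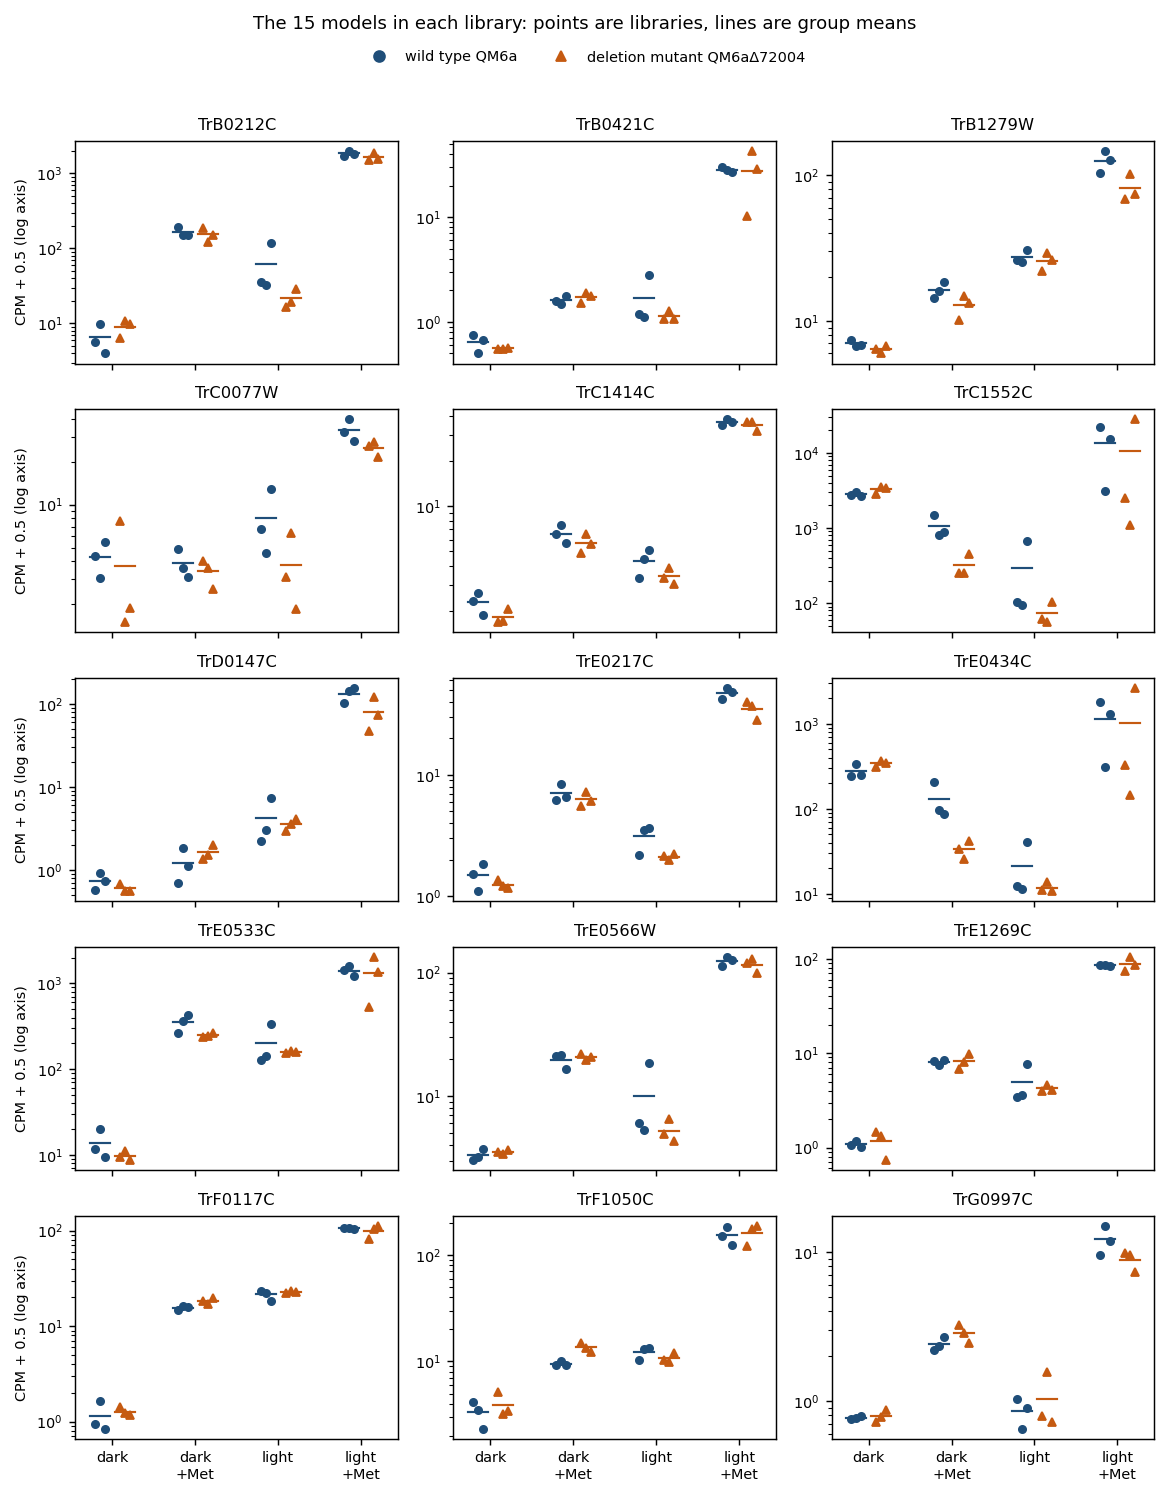
Level of each of the 15 models in every library, as CPM plus 0.5 on a log axis, by growth condition (Met, 5 mM L-methionine). Circles are wild type libraries, triangles are mutant libraries and lines are group means of 3 libraries. In 13 panels the 3 mutant libraries in light with methionine lie above the 9 other mutant libraries, as in 11.6% of all tested models. TrC1552C and TrE0434C are the exceptions.

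Compared per kilobase of coding sequence, the highest wild type level in light with methionine belonged to TrE0533C (unitig_4_consensus 1768547 to 1768822, 2 exons, coding length 210), at 6741 CPM per kb. TrC1552C (unitig_2_consensus 5208063 to 5210456, 1 exon, coding length 2394) followed at 5667 CPM per kb, with libraries too far apart to order these models. TrB0212C (unitig_1_consensus 640777 to 642701, 3 exons, coding length 1779) stood at 1037 CPM per kb, TrD0147C at 594.3 and TrE0434C at 451. The other 10 members lay between 5.62 (TrG0997C) and 143.5 CPM per kb (TrF1050C).

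TrB0212C was the most abundant of the 13 members by CPM. Its wild type libraries in light with methionine read 1726, 2009 and 1801 CPM. Those in darkness read 5.11, 9.44 and 3.47 CPM, those in darkness with methionine 193, 150 and 148, and those in light 34.7, 32.1 and 116. The 3 libraries given both light and methionine lay far above the rest. In the mutant the values were 5.9, 10.1 and 9.44 CPM in darkness, 188, 122 and 148 with methionine in darkness, 16.2, 18.7 and 27.9 in light, and 1486, 1888 and 1573 when both were given. The mutant groups did not overlap each other, and the order of the groups was the same as in the wild type means. Within the mutant, light with methionine exceeded light alone by 6.13 on the log2 scale (SE 0.47, edgeR adjusted p = 3.91e-10) and darkness with methionine by 3.44 (SE 0.41, edgeR adjusted p = 1.18e-06).

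TrD0147C (unitig_3_consensus 422640 to 422971, 3 exons, coding length 225) had the largest wild type ratio, 32 times its next highest group. Wild type libraries in light with methionine read 104, 142 and 155 CPM, and those in light 1.71, 2.54 and 6.85. Darkness with methionine gave 0.194, 1.33 and 0.608 CPM and darkness 0.0638, 0.405 and 0.232, so the last groups lay near the level of 3 counts. Mutant libraries read 47.3, 121 and 73.4 CPM in light with methionine, 2.44, 3.08 and 3.65 in light, 0.858, 1.03 and 1.5 in darkness with methionine, and 0.17, 0.0553 and 0.0605 in darkness. The level in light with methionine stood apart from each other mutant group. It was higher than in darkness with methionine by 6.13 on the log2 scale (SE 0.46, edgeR adjusted p = 1.53e-09), the largest such value among the members, and higher than in light by 4.55 (SE 0.41, edgeR adjusted p = 3.58e-09).

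Next in wild type ratio were TrB0421C, TrF1050C, TrB0212C, TrE1269C and TrE0217C, at 16.7, 12.5, 11.2, 10.5 and 6.71 times the next highest group. TrB0421C (unitig_1_consensus 1246874 to 1247200, 2 exons, coding length 261) read 29.7, 27.5 and 26.5 CPM in wild type light with methionine and at most 2.28 in any other wild type library. Its 3 mutant libraries in light with methionine read 9.75, 42.7 and 28.2 CPM against at most 1.38 in the others. In mutant darkness it had only 3 counts over the group, and the ratio of light with methionine to darkness was 454.7 (95% counting interval 155.3 to 2207, exact, counting error only).

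TrF1050C (unitig_5_consensus 3499678 to 3500953, 3 exons, coding length 1062) read 150, 183 and 124 CPM in wild type light with methionine and 120, 174 and 187 in the mutant. In the mutant the other groups read 9.72, 9.48 and 11.6 CPM in light, 14.5, 12.9 and 11.8 in darkness with methionine, and 4.71, 2.71 and 2.9 in darkness. Each agent alone thus left the model below 15 CPM in every mutant library. TrE1269C (unitig_4_consensus 4058695 to 4059786, 1 exon, coding length 1092) was the steadiest member in wild type light with methionine, at 85.3, 84.7 and 83.4 CPM. The mutant libraries of that condition read 74.4, 104 and 86.4 CPM, against 3.49, 4.15 and 3.54 in light, 6.29, 7.59 and 9.36 in darkness with methionine and 0.965, 0.83 and 0.242 in darkness. All 3 libraries again lay above the other 9.

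Among members of lower ratio, TrE0566W, TrE0217C and TrC1414C behaved alike. TrE0566W (unitig_4_consensus 1885933 to 1887549, 7 exons, coding length 1140) read 112, 133 and 126 CPM in wild type and 119, 127 and 98.7 in mutant light with methionine, with at most 21.2 in every other library. TrE0217C (unitig_4_consensus 668069 to 669085, 1 exon, coding length 1017) read 41.8, 51.2 and 47.4 CPM and, in the mutant, 39.2, 36.7 and 27.8, with at most 7.96 elsewhere. TrC1414C (unitig_2_consensus 4769847 to 4770451, 2 exons, coding length 477) read 34.4, 37.3 and 36.1 CPM and, in the mutant, 35.8, 35.8 and 31.3, with at most 7.04 elsewhere. In these 3 models no library of another condition reached the lowest library of light with methionine in either genotype. In the wild type the rule favours such a separation, and in the mutant 11.6% of tested models showed it. TrB1279W (unitig_1_consensus 4072454 to 4073481, 3 exons, coding length 900) gave 103, 147 and 126 CPM in the wild type and 68.1, 101 and 73.4 in the mutant, over 21.5 to 30.4 in the 6 libraries of light. TrG0997C (unitig_6_consensus 3251091 to 3253268, 3 exons, coding length 2073), the member of lowest level, gave 9.11, 14.5 and 11.4 CPM in the wild type and 9.28, 9.05 and 6.85 in the mutant. In darkness with methionine it read 1.68 to 2.19 CPM in the wild type and 1.94 to 2.74 in the mutant. Neither TrB1279W nor TrG0997C met the rule in the mutant.

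Several members lay close to the limits of the rule. Just inside the ratio of 4 were TrE0533C (4.04), TrE0434C (4.15) and TrC0077W (4.15; unitig_2_consensus 265425 to 266592, 4 exons, coding length 978). Just outside it were TrC0951C (3.88), TrB0984C (3.54) and TrE1271W (3.48). Just inside the level were TrG0997C (11.7 CPM), TrB0421C (27.9) and TrC0077W (32.8), and just outside were TrA2092C (9.08), TrF0479W (6.39) and TrA0977C (4.71). Leaving out single wild type libraries changed the choice. Without replicate 1 of light with methionine TrC1552C and TrE0434C no longer met the rule, without replicate 2 TrC0077W and TrE0533C did not, and without replicate 3 TrE0434C did not. TrE0434C was also lost without replicate 1 or 3 of darkness, TrE0533C without replicate 1 of darkness with methionine, and TrC0077W without replicate 1 or 2 of light. Replicate 3 of wild type light was the highest of its group in 13 of 15 members, at a median of 2.4 times the mean of the other 2 libraries (0.796 to 6.89). Over the 8060 models with at least 1 CPM in that group the median was 0.944. Without that library 17 models met the rule, all 15 members among them.

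In the mutant, whose values the rule did not use, 11 of the 15 members met the same rule. A total of 17 models did so, 0.183% of the 9308 tested, and the shared 11 are 73.3% of the wild type members and 64.7% of the mutant's models. The members that missed it were TrB1279W (3.15 times the next highest group), TrC1552C (3.22), TrE0434C (3.03) and TrG0997C (3.12, at 8.4 CPM). The 6 models that met the rule in the mutant only were TrA0227C, TrA1387W, TrB0984C, TrB1899C, TrC0951C and TrE1271W, and each of them had a wild type ratio between 2.55 and 3.88. The most abundant was TrC0951C, whose mutant mean went from 0.191 CPM in darkness and 1.04 in light to 271 in darkness with methionine and 1378 in light with methionine. Both lists thus hold models near the limit of 4 in the other genotype.

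**Figure D2:**
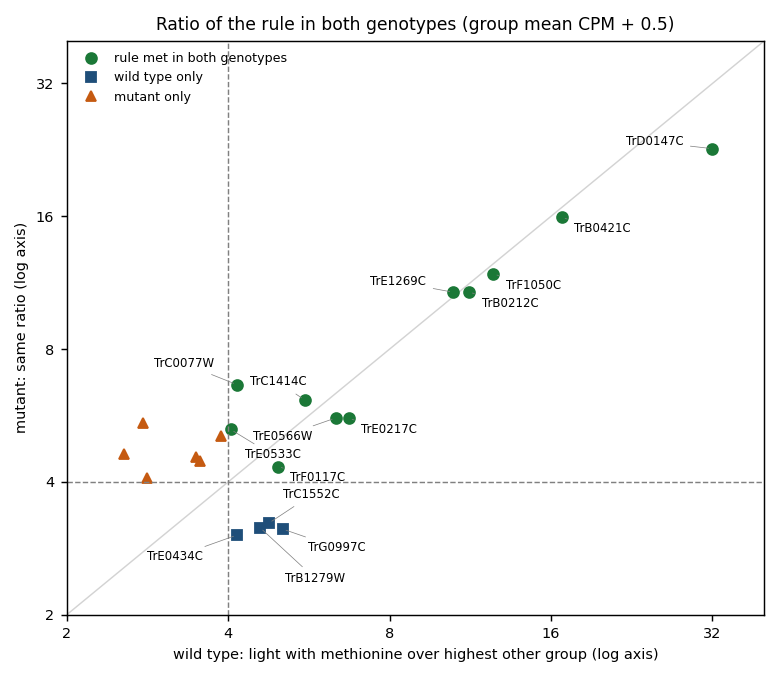
Ratio of the group mean in light with methionine to the highest of the other 3 group means (each plus 0.5 CPM), in the wild type and in the mutant, both on log axes. Dashed lines mark the ratio of 4 and the grey line marks equal ratios. The 11 members that meet the rule in both genotypes (circles) reach 32 in the wild type, while 4 members (squares) and 6 other models (triangles) meet it in one genotype only.

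Tests within the mutant used edgeR's quasi-likelihood test over 9308 models p-values adjusted by Benjamini and Hochberg, and calls at an adjusted p under 0.05. All 15 members were among the models tested, each admitted by its wild type level in light with methionine whatever its level in the mutant. Methionine in light raised 15 of 15 members in the mutant, where 37.4% of all tested models were called higher and 34.3% lower. Their median log2 fold change was 4.24 (1.5 to 7.01), against 0.03 over all models. Light in the presence of methionine raised 15 of 15, against 19% of all models (21.7% were lower), with a median of 3.1 (1.85 to 6.13; −0.01 over all models). Light with methionine against plain darkness raised 13 of 15, against 39.8% (37.8% lower), with a median of 5.27 (0.03 over all models). The 13 members were called higher in all 3 comparisons, as were 752 models or 8.08% of those tested. In these 13 the 3 mutant libraries in light with methionine also lay above the 9 other mutant libraries, a pattern shown by 11.6% of tested models.

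**Figure D3:**
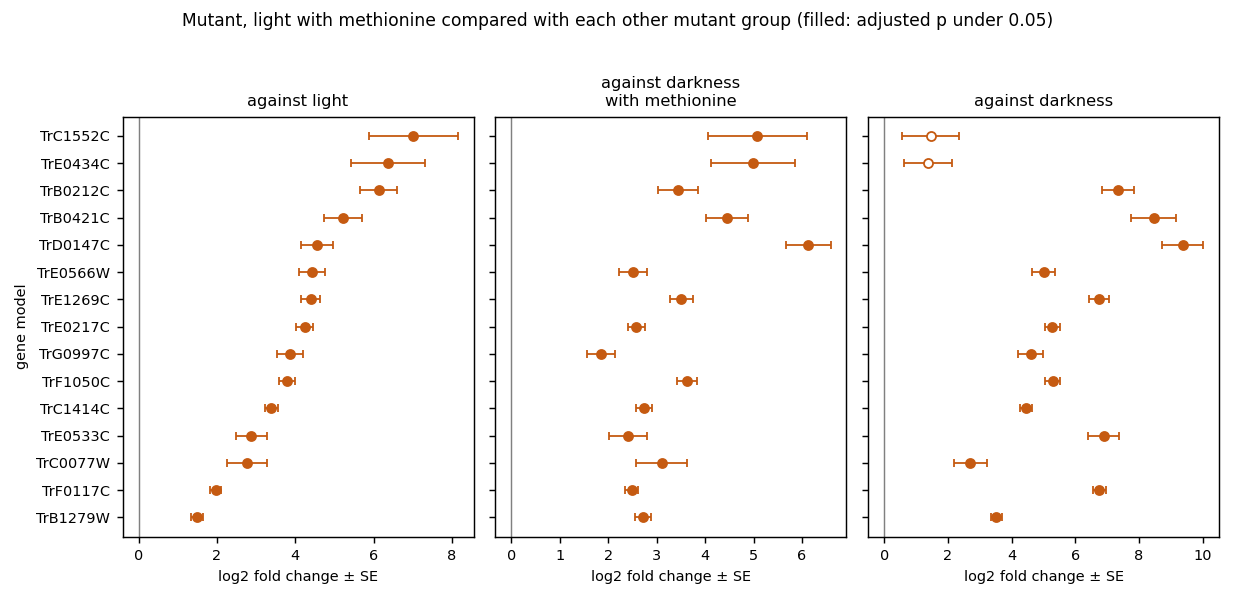
Log2 fold change ± SE in the mutant of light with methionine against light (left), against darkness with methionine (middle) and against darkness (right), 3 libraries a group. Filled points passed an edgeR adjusted p of 0.05. The 2 open points are TrC1552C and TrE0434C against darkness.

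Each agent alone also moved most members in the mutant. Methionine in darkness raised 12 of 15 (39.6% of all models were higher) and lowered 2 (37.7% were lower). TrE0533C rose most, by 4.49 on the log2 scale (SE 0.44, edgeR adjusted p = 1.1e-08), from 8.91, 10.6 and 8.29 CPM to 240, 241 and 266. Light without methionine raised 10 of 15 (31.8% of all models) and lowered 2 (30.6%). TrF0117C (unitig_5_consensus 413685 to 414886, 3 exons, coding length 1068) went from 0.908, 0.719 and 0.665 CPM in mutant darkness to 21.9, 23.1 and 22.1 in light, a rise of 4.78 on the log2 scale (SE 0.21, edgeR adjusted p = 6.45e-14). The rise in light of TrB0212C (1.22) was not called without replicate 1 of mutant darkness (0.99) or replicate 3 of mutant light (0.94), and that of TrB0421C (3.24) was not called without replicate 1 or 2 of darkness (3.21 and 3.22). The next highest mutant group was darkness with methionine in 9 members, light in 4 and darkness in 2, the last being TrC1552C and TrE0434C. TrC0077W was the single member with no call for either agent alone, at −0.06 for light and −0.40 for methionine (SE 0.57 and 0.58), and both values changed sign without replicate 1 of mutant darkness (1.33 and 0.99, neither called). TrC0077W read 2.59, 5.86 and 1.35 CPM in mutant light, 3.55, 3.1 and 2.04 in darkness with methionine and 7.21, 0.996 and 1.39 in darkness, and 25.1, 27.2 and 21.2 with both. Its rise over darkness was 2.70 with all libraries and 4.08 without replicate 1 of darkness, and its rise over light was 2.76, or 3.43 without replicate 2 of light. TrD0147C also depended on replicate 1 of darkness, which held 3 of its 5 counts there: without it the rise over darkness went from 9.37 to 10.01, that with light from 4.82 to 5.46 and that with methionine in darkness from 3.24 to 3.88.

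Whether methionine acted more strongly in light than in darkness was tested in the mutant as an interaction, in which the log2 response in darkness is subtracted from that in light. The difference was positive for 9 members (22.4% of all models were called positive), negative for 2 (23.3%) and not called for 4. Apart from TrC1552C and TrE0434C, the largest was that of TrC0077W (3.15, SE 0.77, edgeR adjusted p = 0.00237), which was lost without replicate 1 of mutant darkness (1.77, edgeR adjusted p = 0.0623). TrB0212C followed at 2.22 (SE 0.57, edgeR adjusted p = 0.00317), TrF1050C at 2.12 (SE 0.31, edgeR adjusted p = 1.18e-05) and TrE0566W at 1.94 (SE 0.47). TrC1414C stood at 1.69, TrE0217C at 1.55 and TrB1279W at 0.70, the last without a call when replicate 2 of mutant light with methionine was left out (0.53). These models therefore stood higher with both agents than the product of the separate responses.

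The negative values belonged to TrF0117C (−2.30, SE 0.26, edgeR adjusted p = 5.24e-07) and TrE0533C (−1.61, SE 0.54, edgeR adjusted p = 0.0207). TrF0117C rose by 4.26 with methionine in darkness and by 1.97 with methionine in light, where it went from 21.9, 23.1 and 22.1 to 80.9, 103 and 112 CPM. In the wild type it read 107, 106 and 104 CPM with both agents, 23.1, 21.9 and 17.9 in light, 14.2, 15.6 and 15.3 in darkness with methionine, and 0.447, 1.15 and 0.347 in darkness. Both agents raised this model, and the joint level was below the product of the separate responses. In the wild type means, which chose the members, the joint fold change over darkness exceeded that product in 13 members. It fell short of the product in TrF0117C (92.7 against 253.8) and TrE0533C (103.2 against 375.8). Where either agent alone raised a model less than 4 times, the rule itself forces an excess, so this count is a description. The interaction was not called for TrB0421C (1.21, SE 1.79), TrD0147C (1.31, SE 1.67), TrE1269C (1.17, SE 0.47, edgeR adjusted p = 0.0516) and TrG0997C (1.12, SE 0.62). That of TrE1269C was called by DESeq2 (1.18, adjusted p = 0.0123), in edgeR fitted on the mutant libraries alone (1.17, adjusted p = 0.0328), and in edgeR without replicate 3 of darkness (1.53), without replicate 3 of methionine in darkness (1.31) and without replicate 1 of both agents (1.28). Without replicate 2 of mutant light TrG0997C had a called interaction of 2.07 and a response to methionine in light of 4.80 in place of 3.86. TrB0421C and TrD0147C had 3 and 5 counts over the group in mutant darkness, and their SEs were the largest among the members.

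**Figure D4:**
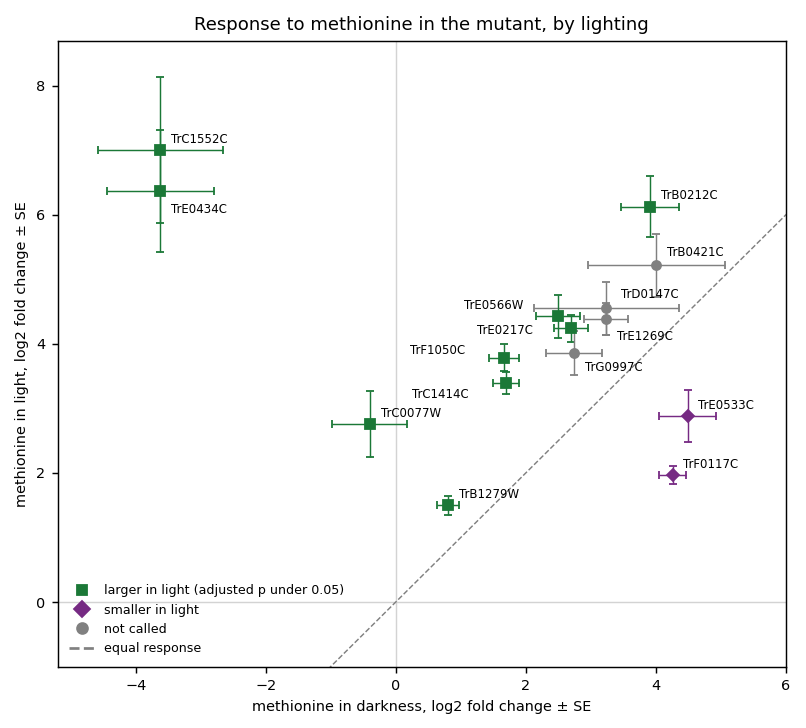
Response to methionine in the mutant in light against that in darkness, log2 fold change ± SE from 3 libraries a group. On the dashed line both responses are equal. The 9 squares lie above it with a called interaction, the 2 diamonds (TrF0117C and TrE0533C) lie below it, and TrC1552C and TrE0434C stand at negative values in darkness.

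TrC1552C and TrE0434C (unitig_4_consensus 1446664 to 1449207, 1 exon, coding length 2544) went apart from the other members. TrC1552C read 2783, 3062 and 2707 CPM in wild type darkness, 1494, 817 and 898 with methionine in darkness, 102, 93.5 and 674 in light, and 22115, 3105 and 15479 when both were given. TrE0434C read 246, 334 and 248, then 209, 97 and 86.5, then 11.8, 10.8 and 39.8, and finally 1812, 313 and 1318 CPM in the same order. In both, replicate 2 of light with methionine was the low library, and for TrE0434C it lay below the highest library of darkness. In the mutant TrC1552C read 2831, 3551 and 3405 CPM in darkness, 255, 255 and 448 with methionine in darkness, 60.1, 55.3 and 104 in light, and 2530, 1098 and 27903 when both were given. TrE0434C read 312, 366 and 347, then 32.9, 25.4 and 41.5, then 10.5, 13.2 and 10.3, and then 332, 145 and 2630 CPM. Replicate 3 of mutant light with methionine carried the high value of both models, and the other 2 libraries overlapped or lay below darkness.

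Methionine thus had opposite signs in the 2 lightings. In mutant darkness it lowered TrC1552C (−3.62, SE 0.96, edgeR adjusted p = 0.00203) and TrE0434C (−3.62, SE 0.82, edgeR adjusted p = 0.00049). In mutant light it raised them by 7.01 (SE 1.13, edgeR adjusted p = 1.37e-05) and 6.37 (SE 0.94, edgeR adjusted p = 4.58e-06). Without replicate 3 of mutant light with methionine these rises were 4.46 and 4.22 and were still called. Light without methionine lowered them, with log2 fold changes of −5.56 (SE 1.06) and −5 (SE 0.89). The interaction was 10.63 (SE 1.48) and 9.99 (SE 1.25), or 8.06 and 7.83 without replicate 3. Against darkness with methionine the rises of 5.08 and 4.99 became 2.48 and 2.81 without it. Against plain darkness neither passed the threshold in the mutant (1.45 and 1.37, edgeR adjusted p = 0.14 and 0.101). Without replicate 3 these values were −1.13 and −0.80, and without replicate 2 they were 1.99 and 1.88 and passed it, as did TrE0434C without replicate 1 (1.79).

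The levels of TrC1552C and TrE0434C kept to each other across libraries. Per kilobase, TrC1552C stood at 4.47 to 18 times TrE0434C over all 24 libraries (median 10.4), while TrC1552C itself ranged from 55.3 to 27903 CPM. Across the 24 libraries the Pearson correlation of their log2(CPM + 0.5) values was 0.99. These libraries share their groups, so the value is a description. Of the 7525 other models with at least 10 CPM in some group, those most like TrC1552C after TrE0434C were TrB0958W (0.968), TrB0496C (0.961), TrB1918C (0.956) and TrA0210C (0.955), named here after their values were seen. None of these 4 was linked to a locus tag. In light with methionine TrB1918C read 1059, 103 and 641 CPM in the wild type and 58.5, 29.6 and 1542 in the mutant, and TrB0496C read 3228, 852 and 2721, and 847, 555 and 3439. The low and high libraries were the same as for the 2 members.

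**Figure D5:**
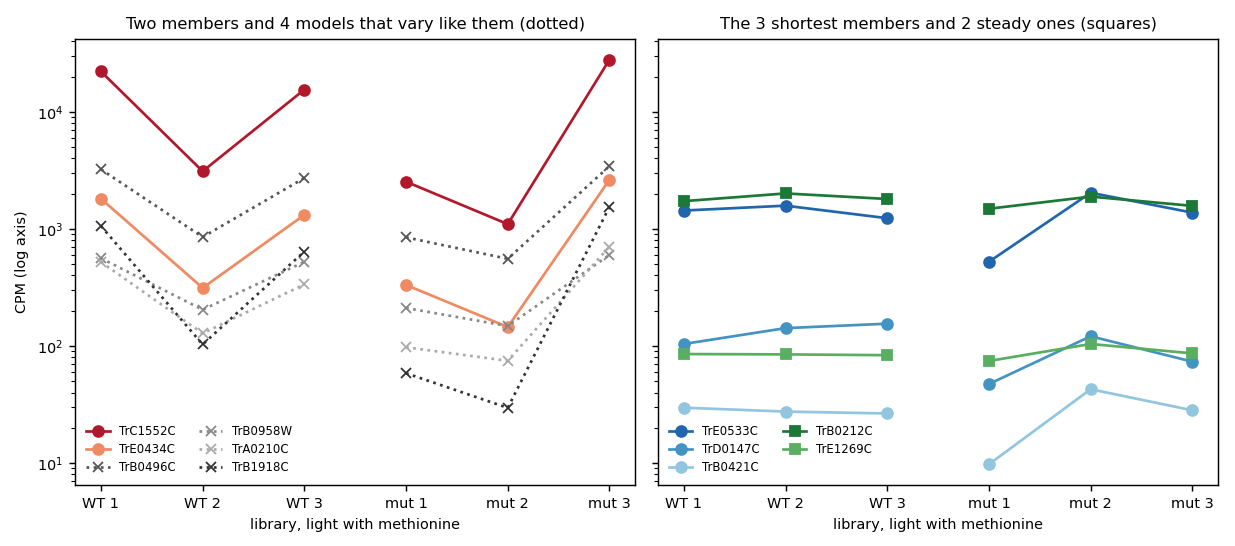
Level in the 6 libraries of light with methionine (WT, wild type; mut, mutant), CPM on a log axis, with lines joining the values of one model within a genotype. On the left TrC1552C and TrE0434C and the 4 models most like TrC1552C are low in wild type replicate 2 and high in mutant replicate 3. On the right the 3 shortest members (circles) are low in mutant replicate 1, at 524, 47.3 and 9.75 CPM, and TrB0212C and TrE1269C (squares) vary less.

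The 13 other members varied little within wild type light with methionine, where the highest library was 1.02 to 1.59 times the lowest. In the mutant this range was 1.14 to 4.38, and the widest spreads belonged to the 3 shortest members. TrE0533C read 1435, 1579 and 1234 CPM in the wild type and 524, 2035 and 1377 in the mutant, and TrB0421C and TrD0147C were lowest in the same mutant library, replicate 1. Over the 179 models with a coding length under 300 and at least 10 CPM in that group, the median level in replicate 1 was 0.954 of the group mean, against 0.999 over the 6636 longer models. That library was the lowest of its group in 8 of the 15 members. The share over all models was not computed, so this count says nothing particular about the members. Other models, named after their values were seen, were also low there. TrB0361C (coding length 246) read 14.1, 133 and 148 CPM in the 3 mutant libraries. TrD0546C (coding length 948) read 62.3, 562 and 333 CPM, and TrB1608W (coding length 522) read 25.8, 533 and 370. The part of library or length in this spread was not tested.

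Mutant levels in light with methionine were close to those of the wild type or below them. The ratio of mutant to wild type means (plus 0.5 CPM) had a median of 0.902 over the 15 members and ran from 0.603 (TrD0147C) through 0.644 (TrB1279W), 0.732 (TrG0997C) and 0.741 (TrE0217C) to 1.04 (TrE1269C) and 1.05 (TrF1050C). It was below 1 in 13 of 15. The ratios of TrC1552C (0.775) and TrE0434C (0.902, the median itself) rest on the high replicate 3 of the mutant. Without that library the median over the 15 members was 0.87. The members were chosen for high wild type values in this group, which pushes the ratio down, so no test is given. In darkness with methionine TrC1552C and TrE0434C had mutant to wild type ratios of 0.299 and 0.257, the lowest of the 15 members. That wild type group also entered the choice, and these ratios were not tested. In light TrC1552C (0.253) and TrB0212C (0.348) were furthest below the wild type, both with a wild type mean carried by replicate 3.

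The members were spread over the genome. They lay on 6 of the 7 contigs, the nearest 2 on one contig were 33 models apart, and none overlapped another model. The minus strand held 12 of 15, against 50.7% of all models. A single exon was found in 4 (20.5% of all models), and 2, TrC1552C and TrE1269C, lay within 100 kb of a contig end (4.08%). The median coding length was 1062 against 1113 over all models, and 3 members were under 300 (8.04%). None of these shares was tested.

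The 60 models next to members (2 on each side) hold no other member, since the nearest 2 members on a contig were 33 models apart. TrE1271W met the rule on mutant means, as did 0.183% of all tested models. Of the 56 neighbours tested, 18 were called higher in mutant light with methionine against all 3 other groups (8.08% of all tested models). Some of the 18 rest on few counts. TrB0420C had a mutant mean of 0.681 CPM with both agents and 0 in each other group, and TrE1270C had 1.11 against at most 0.342. TrD0148W, 328 bases from TrD0147C on the opposite strand, had mean mutant levels of 4.94 CPM in darkness, 8.4 with methionine in darkness, 10.7 in light and 28.8 with both. It rose by 1.26 with methionine in light (SE 0.14, edgeR adjusted p = 1.41e-07). TrE1271W, the second model after TrE1269C, had 0.38, 3.58, 2.09 and 18.1 CPM in the same order, with an interaction of −0.02 (SE 0.36), which was not called. TrB0419C, the second model before TrB0421C, had 0.056, 0.071, 0.118 and 3.45 CPM and rose by 4.53 with methionine in light (SE 0.54, edgeR adjusted p = 1.78e-07).

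Other neighbours were highest in darkness. TrD0146W, 504 bases from TrD0147C on its other side, had a mean of 137.4 CPM in mutant darkness and at most 0.112 in the other mutant groups. TrC1551C, 1311 bases from TrC1552C on the same strand, had 395.6 CPM in mutant darkness, 0.575 with methionine in darkness, 0.102 in light, and 2.43 when both were given. It stayed below its level of darkness when both agents were given (−7.67, SE 0.73, edgeR adjusted p = 5.71e-09). TrC1552C passed its own level of mutant darkness only in replicate 3. Like TrC1552C, TrC1551C fell with light alone (−11.84, SE 1.02) and with methionine in darkness (−9.63, SE 0.84). TrC1551C also rose with methionine in light (4.16, SE 1.59, edgeR adjusted p = 0.0218), with an interaction of 13.79 (SE 1.58). Its 3 mutant libraries of light with methionine read 0.471, 0.213 and 6.62 CPM, with replicate 3 again the highest.

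For comparison 6 light-related gene symbols were listed (blr1, blr2, env1, phr1, cry1 and cry2). Of these, 4 are in the reference table and 1, blr2, was linked to a model (TrD1076W). In mutant darkness it stood at 73.6 ± 3.77 CPM, and at 57.2 ± 0.272 when methionine was added (SD, n = 3). Light gave 159 ± 3.43 CPM, and light together with methionine 78.6 ± 5.78. Unlike the 15 members, blr2 fell with methionine in light (−1.19, SE 0.05, edgeR adjusted p = 1.27e-13), with an interaction of −0.56 (SE 0.08, edgeR adjusted p = 5.44e-06).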

How the data were processed

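The authors deposited a table of raw counts for each gene model. Its header names featureCounts 2.0.1, run on read pairs with the reverse strand setting. The submitters' processing notes also name HISAT2 2.2.1. Trimming and the genome build are not given in the sources used here. Coordinates are those of the count table. Model lengths, deposited as other values beside the counts, are multiples of 3 for 94.7% of models and are called coding lengths.

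CPM was the count divided by the column total. The test was edgeR's quasi-likelihood F test (edgeR 4.0.16, R 4.3.3, TMM, filter with minimum count 10, a one-factor model of 8 groups, 24 libraries). SE is the log2 fold change before moderation by the prior count, divided by the square root of F, and the printed fold changes are the moderated ones. DESeq2 1.42.0 was an alternative. The procedure was tested on simulated data. Models were linked to locus tags (assembly GCF_000167675.1) by identical span and at least 3 identical neighbours within 6 on each side, which linked 4016 models (36.9%). Deviations of same-numbered mutant libraries had a mean r of −0.0048 over 18 pairs, with 7 over 0.1 and in no pair of groups all 3, so numbers were not taken to pair samples. The table gives no products, so functional lists could not be made. Named genes were the 8 members of highest level, the 6 of largest ratio, the 3 models on each side of the limits, linked members with a symbol, members at most 2 models apart, the 4 lowest and 4 highest mutant to wild type ratios, up to 6 members not called in all 3 comparisons, the 4 of widest wild type range and the 3 highest and 3 lowest interactions, which together name all 15 members. Neighbours and models alike to a member were chosen after their values were seen. The members and lists were chosen with earlier results of these data known.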

Additional observations from a re-analysis of the deposited data

Results flagged for a closer look

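The response to methionine differed between light and darkness in the mutant, by edgeR's interaction test with Benjamini-Hochberg adjustment over 9308 models, in 11 of the 15 members. It was called positive in 22.4% of all models and negative in 23.3%. The log2 differences (light minus darkness) were 10.63 for TrC1552C, 9.99 for TrE0434C, 3.15 for TrC0077W, 2.22 for TrB0212C, 2.12 for TrF1050C, 1.94 for TrE0566W, 1.69 for TrC1414C, 1.55 for TrE0217C and 0.70 for TrB1279W. They were −1.61 for TrE0533C and −2.30 for TrF0117C. The call of TrC0077W was lost without replicate 1 of mutant darkness (1.77), and that of TrB1279W without replicate 2 of mutant light with methionine (0.53).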

How the results depend on the processing

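Over 17 alternative settings, 78 of 90 values (15 members in 6 mutant comparisons) kept their direction and their side of the threshold in every one. Of the 1530 alternative values, 1506 were unchanged in both respects, 6 lost a call, 10 gained one and 8 changed sign. The counts of members called in the mutant stayed within 1.5 times the main counts under all of these settings. With the wild type ratio set to 3 or 6 in place of 4, the rule chose 26 or 7 models. On TMM-scaled CPM it chose 13 models, and TrC0077W and TrE0434C were lost. On mutant means 15 models met the rule on that scale, and TrB0984C and TrF0117C were lost. Without replicate 2 of mutant light with methionine 21 models met it on mutant means, but TrE0533C did not. For light alone TrC0077W changed sign (−0.06 before) to 0.12 with the replicate number as a block, 1.33 without replicate 1 of mutant darkness, and 0.08 and 0.30 without replicates 1 and 3 of mutant light (leave-one-out range −0.73 to 1.33). For methionine in darkness it changed to 0.99 without replicate 1 of darkness (range −0.82 to 0.99). TrG0997C changed sign for light alone (−0.22 without replicate 2 of mutant light, range −0.22 to 1.06). TrC1552C and TrE0434C changed sign against darkness (−1.13 and −0.80) without replicate 3 of mutant light with methionine, with ranges up to 1.99 and 1.88. The causes were not tested. With the replicate block the counts of members called higher were 15, 15 and 13 in the comparisons with light, darkness with methionine and darkness, as without it. The block moved the response of TrC1552C and TrE0434C to methionine in light to 5.84 and 5.40, that to light with methionine present to 4.04 and 4.23, and the interaction to 9.48 and 9.03, all still called. Depth limits the values of TrB0421C and TrD0147C in darkness, which rest on 3 and 5 counts in the mutant.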
